A study of Rattus norvegicus with 12 samples.

Results

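In 8 of the 12 arrays of rat aortic smooth muscle cells, the arrays of both experiments with the receptor peptide TRAP, the signal of the acute-phase gene Saa3 took 2 separate levels that cut across the labelled groups. The arrays were split on that signal at 100, which gave 4 Saa3-high and 4 Saa3-low arrays, each set with 2 basal and 2 stimulated arrays. The split was read from the data. What follows of the difference between the sets is therefore a description with no test, and tests are given only for the labelled comparisons, in which the sets are balanced, and for the 4 arrays of the thrombin experiment, which the split did not use. Along with Saa3, the Saa3-high arrays held more transcript of other acute-phase, complement and chemokine genes and of inhibitors of NF-kB, and less of genes of mitosis and DNA replication.

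Inflamed smooth muscle cells of the vessel wall are known to secrete serum amyloid A, lipocalin, secreted phospholipase A2, complement and chemokines. Many of these genes carry sites for NF-kB and C/EBP factors, which interleukin-1 and tumour necrosis factor activate, and NF-kB also induces its own inhibitors. Genes of mitosis are switched on late in the cell cycle through CCAAT boxes and the CHR element of their promoters, and dividing cultures hold more of their transcripts than resting ones.

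The cells were primary cultures from the aorta of newborn rats, starved of serum overnight in medium with albumin. Each of the 6 labelled groups has 2 arrays: unstimulated (basal) cells of the thrombin, TRAP and TRAP+PTX experiments, and cells stimulated for 120 min. The stimuli were thrombin (2 U/ml), TRAP (25 µM), and TRAP at that dose in cells kept for 24 h in 200 ng/ml of pertussis toxin (PTX). Thrombin cleaves receptors of the PAR family and so turns them on, a TRAP peptide does so with no cleavage, and PTX uncouples Gi proteins. The series holds thrombin without PTX alone, and TRAP with and without PTX. The labels list no agent for the basal TRAP+PTX arrays and leave unstated if PTX was given there. Nothing in the labels ties replicates to different cultures. The p-values therefore speak of the spread among these samples alone, which may be technical.

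The Saa3-high set holds both basal TRAP+PTX arrays, TRAP replicate 1 and TRAP+PTX replicate 2. The Saa3-low set holds TRAP replicate 2, TRAP+PTX replicate 1 and both basal arrays of the TRAP experiment. Both replicates of a stimulated group thus lie in different sets, while both basal arrays of an experiment lie in the same one. Exchanging TRAP replicate 1 with TRAP+PTX replicate 1 would make the sets the same as the experiments. The part of the labels or of separate cultures in the split was not tested. The 3'/5' signal ratio of GAPDH, a sign of RNA quality, was 1.107 to 1.169 on the Saa3-high and 1.155 to 1.177 on the Saa3-low arrays, and that of beta-actin was 1.385 to 1.504 and 1.322 to 1.424. The median signal was 45.2 to 53.6 against 43.6 to 51.1. These ranges overlap, and the part of RNA quality in the differences was not tested. Over all tested probe sets TRAP replicate 1 correlated with r = 0.987 both with its own replicate and with TRAP+PTX replicate 2 of its set. TRAP replicate 2 and TRAP+PTX replicate 1 had r = 0.9895 with each other, against 0.9872 and 0.9858 with their own replicates. For TRAP+PTX replicate 2, r was 0.9866 with TRAP replicate 1 and 0.9858 with its own replicate. Basal TRAP+PTX replicate 1 went the other way, with 0.9845 for basal TRAP replicate 2 of the other set and 0.9826 for its own replicate.

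The bases upstream of the start sites are shown for 4 genes that were higher on the Saa3-high arrays and for 2 mitotic genes that were lower, because the members of either kind moved together and differ in the motifs before their starts. Each window is the 250 bases before the start in RefSeq, build GRCr8, read 5′ to 3′ along the gene, and all 6 genes lie on the minus strand. The windows are chr1:106358431-106358680 for Saa3, chr3:36081781-36082030 for Lcn2, chr14:17479322-17479571 for Cxcl1, chr6:78597073-78597322 for Nfkbia, chr1:199952594-199952843 for Mki67 and chr8:79981659-79981908 for Ccnb2. Capitals mark matches on either strand to the NF-kB consensus, the C/EBP motif TTGCNNAA, CCAAT or the CHR element TTTGAA.
Saa3: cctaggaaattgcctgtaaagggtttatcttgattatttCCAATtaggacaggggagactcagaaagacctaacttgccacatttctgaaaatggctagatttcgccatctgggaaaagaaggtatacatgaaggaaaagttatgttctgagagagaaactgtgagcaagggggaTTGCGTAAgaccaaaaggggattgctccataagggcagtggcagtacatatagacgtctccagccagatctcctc
Lcn2: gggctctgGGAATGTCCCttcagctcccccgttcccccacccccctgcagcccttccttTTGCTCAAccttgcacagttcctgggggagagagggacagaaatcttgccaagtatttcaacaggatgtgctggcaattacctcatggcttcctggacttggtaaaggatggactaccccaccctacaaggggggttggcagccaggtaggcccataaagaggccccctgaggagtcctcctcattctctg
Cxcl1: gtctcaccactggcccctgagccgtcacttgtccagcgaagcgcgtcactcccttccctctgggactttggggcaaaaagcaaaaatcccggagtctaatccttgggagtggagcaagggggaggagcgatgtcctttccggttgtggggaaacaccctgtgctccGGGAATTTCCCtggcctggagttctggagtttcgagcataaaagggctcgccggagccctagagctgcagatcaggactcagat
Nfkbia: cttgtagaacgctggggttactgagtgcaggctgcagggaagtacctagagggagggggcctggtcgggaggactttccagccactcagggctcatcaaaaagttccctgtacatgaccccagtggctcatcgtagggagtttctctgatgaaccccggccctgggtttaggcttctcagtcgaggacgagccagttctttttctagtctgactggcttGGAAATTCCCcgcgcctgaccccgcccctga
Mki67: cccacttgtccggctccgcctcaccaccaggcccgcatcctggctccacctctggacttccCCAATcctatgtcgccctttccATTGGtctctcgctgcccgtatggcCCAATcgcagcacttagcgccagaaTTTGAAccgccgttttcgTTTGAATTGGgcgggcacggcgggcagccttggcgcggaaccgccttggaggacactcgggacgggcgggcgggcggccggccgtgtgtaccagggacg
Ccnb2: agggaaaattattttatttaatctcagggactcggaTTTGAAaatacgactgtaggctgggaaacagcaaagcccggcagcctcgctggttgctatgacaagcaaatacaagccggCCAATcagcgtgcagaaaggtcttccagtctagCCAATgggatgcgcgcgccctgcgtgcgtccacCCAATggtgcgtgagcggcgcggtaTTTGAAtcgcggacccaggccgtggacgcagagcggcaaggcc

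Lcn2 holds 1 NF-kB and 1 C/EBP match, Nfkbia holds 1 NF-kB match, and the 2 NF-kB matches of Cxcl1 are shifted copies within 1 run of capitals. Saa3 holds 1 C/EBP and 1 CCAAT match. Mki67 has 4 CCAAT and 2 CHR matches, of which the last CHR and CCAAT matches overlap, and Ccnb2 has 3 and 2. The NF-kB consensus was found in 7 of the 16 windows at hand for genes at least 2-fold higher on the Saa3-high arrays (43.8%), in 12 of 52 for genes at least 1.5-fold higher (23.1%), and in 6 of 94 for genes at least 1.5-fold lower (6.38%), against 8.47% of the 8344 windows of tested genes and 6.41% of all 27457. The C/EBP motif was in 4 of 16 (25%), 9 of 52 (17.3%) and 4 of 94 (4.26%), against 7.08% of tested genes and 9.2% of all windows. CCAAT went the other way, with 6 of 16 (37.5%), 15 of 52 (28.8%) and 59 of 94 (62.8%), against 36.3% and 34.3%. CHR was in 0 of 16, 5 of 52 (9.62%) and 29 of 94 (30.9%), against 9.85% and 16%. Of the 4 windows at hand for genes at least 2-fold lower, 3 held CCAAT (75%) and none held the NF-kB consensus, the C/EBP motif or CHR. The counted genes Ttk and Troap, named below, thus have no CHR match, unlike Mki67 and Ccnb2. The 16 windows include that of Saa3, on which the split was made. These shares describe letters in a window and were not tested.

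A difference between the sets is the mean over the Saa3-high minus the mean over the Saa3-low arrays on the scale log2(signal + 16), with basal or stimulated as a covariate. A gene was counted when the difference was at least 2-fold and the sets did not overlap, in the same direction, among the basal nor among the stimulated arrays. By this rule 19 of 9906 genes were higher on the Saa3-high arrays (0.192% of the genes tested) and 5 were lower (0.0505%). Saa3, on which the split was made, is among the 19. At 1.5-fold, 74 genes were higher (0.747%) and 111 lower (1.12%). Without any fold, the sets did not overlap for 753 genes that were higher (7.6%) and 812 that were lower (8.2%). These shares over all genes are the background for the list counts below. List counts cover measured genes, that is, those with a probe set past the filter on signal. These were 10 of 30 acute-phase, 6 of 22 complement, 15 of 31 chemokine and cytokine, and 20 of 24 NF-kB genes. For mitosis they were 42 of 49, and for S phase 41 of 46. The filter took the mean over all 12 arrays, so a gene dim on the Saa3-low arrays, such as C3, could pass through the others. The median difference of all genes was 0.005 and the SD 0.212. More genes were higher than lower at 2-fold, and more were lower than higher at 1.5-fold. Without TRAP+PTX replicate 1, the count of 5 lower genes became 3.

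Acute-phase genes held several of the largest differences. Saa3, a serum amyloid A secreted in inflammation and the gene the split was made on, was at 420.9 and 374.6 on the basal TRAP+PTX arrays, 222.5 on TRAP replicate 1 and 237.8 on TRAP+PTX replicate 2. On the other set it was at 18.1 and 15.9 on the basal TRAP arrays, 22.8 on TRAP replicate 2 and 20.3 on TRAP+PTX replicate 1. The arrays nearest the threshold were thus at 222.5 above it and 22.8 below it. Pla2g2a, a secreted phospholipase A2 that releases fatty acids from membranes, was at 269.6 and 256.4 basal and 230.9 and 261.0 stimulated on the Saa3-high arrays, against 9.8, 7.8, 3.3 and 2.4. Its difference of 3.64 ± 0.08 (SE, log2, 4 against 4 arrays) stands beside 3.18 ± 0.22 for Saa3. Lcn2, a lipocalin that withholds iron from bacteria, was at 360.2 and 275.2 basal and 293.9 and 309.7 stimulated, against 32.8, 23.5, 20.2 and 20.4 (difference 3.02 ± 0.12). None of these 3 overlapped between the sets, whether basal or stimulated arrays are read. Because the low signals lie near the added 16, the differences depend on it: with 1 added instead, those of Pla2g2a, Saa3 and Lcn2 were 5.38, 3.91 and 3.64, and with 64 added 2.19, 2.15 and 2.08.

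Of 10 measured genes of acute phase and innate defence, 6 were counted at 2-fold, 7 at 1.5-fold and none lower, with a median difference of 1.04 and all 10 above 0. Saa3, on which the split was made, is among these 6, so its count was fixed by the split. Lbp, which hands bacterial lipopolysaccharide to its receptor, was at 1508.3 to 1694.6 against 617.2 to 678.4, a difference of 1.31 ± 0.05. Mt2A, a metal-binding metallothionein (1.05 ± 0.12), and Sod2, the mitochondrial superoxide dismutase (1.02 ± 0.12), complete the 6. Cp, the copper-carrying ceruloplasmin, reached 0.76. Not all members separated the sets: Cd14, a receptor for lipopolysaccharide, differed by 0.10, and Nos2, the inducible nitric oxide synthase, by 0.32 ± 0.42. Mt2A, Sod2 and Cp, like all genes below that are named outside the stated rule, were chosen after their values were seen.

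Among 6 measured complement genes of 22 listed, C3, the protein on which the pathways of complement meet, was counted at 2-fold. C3 was at 229.9 and 215.1 basal and 164.9 and 163.3 stimulated on the Saa3-high arrays, against 18, 13.0, 6.0 and 17.4 on the Saa3-low ones, a difference of 2.83 ± 0.15. The proteases that start the classical pathway followed at smaller size, with C1s at 1422.1 to 1744.8 against 806.1 to 848.1 (0.93 ± 0.06) and C1r at 0.67 ± 0.11. Cd55, which limits complement on the cell's own surface, differed by -0.03.

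Chemokines and cytokines had 15 measured genes, of which 5 were counted at 2-fold and 10 at 1.5-fold, with a median of 0.76. Ccl2, which attracts monocytes, was at 4003.5 and 3396.6 on the basal and 6680.9 and 6720.7 on the stimulated Saa3-high arrays, against 607.6 and 598.4, then 1590.9 and 1433.8. Its neighbour in function Ccl7 was at 1262.5 and 1102.9, then 1707.4 and 1688.2, against 143.2 and 152.1, then 315.4 and 264.9. For both chemokines the lowest Saa3-high basal array lay above the highest stimulated array of the other set, and the differences were 2.36 ± 0.12 for Ccl2 and 2.68 ± 0.11 for Ccl7. Cxcl1, which attracts neutrophils, was at 455.5 and 417.0, then 5354.7 and 6274.7, against 80.6 and 85.4, then 1332.8 and 1237.8 (2.18 ± 0.06). Here the basal Saa3-high arrays lay below the stimulated Saa3-low ones, so the sets separate only at matched stimulation. Ccl20, a ligand of CCR6, had a difference of 1.97 ± 0.36, and the cytokine Il6 of 1.13 ± 0.17, with 291.3 and 305.9 on stimulated Saa3-high arrays against 93.6 and 100.6. The adhesion molecule Vcam1 differed by 0.86 ± 0.06. Tslp was the 1 cytokine lower on the Saa3-high arrays without overlap, by -0.40.

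Of 20 subunits and feedback genes of NF-kB, 2 were counted at 2-fold and 7 at 1.5-fold, and 12 did not overlap between the sets. The inhibitor Nfkbia, which holds NF-kB in the cytoplasm, was at 311.5 and 277.2 basal and 744.7 and 785.3 stimulated, against 139.3 and 140.7, then 359.9 and 298.1 (1.09 ± 0.08). Nfkbiz, a nuclear cofactor needed for Lcn2 and Il6 induction, was at 248.5 and 273.3, then 1379.6 and 1286.5, against 129.5 and 125.2, then 594.3 and 537.1 (1.08 ± 0.08). Birc3 (0.97), Zc3h12a, which degrades cytokine mRNA (0.96), Cebpd (0.91) and Tnfaip3, which removes ubiquitin from the NF-kB pathway (0.82), were between 1.5-fold and 2-fold. The subunits themselves were close to level, with Rela at 0.11, Nfkb1 at 0.18 and Nfkb2 at 0.23, apart from Relb at 0.77 ± 0.33. Interferon-stimulated genes differed little: of 16 measured, 0 passed 1.5-fold, the median was 0.09, and Ifit2 had the largest difference, 0.47. Genes of prostaglandin and nitric oxide synthesis had a median of -0.0 over 9, and Ptgs2, the inducible cyclooxygenase, differed by -0.00.

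The other counted genes belong to no inflammation list. Rasl12, a small GTPase of the Ras family, was at 192.3 and 127.8 basal and 53.8 and 45.5 stimulated on the Saa3-high arrays, against 37.6, 45.1, 22 and 19.5 (1.22 ± 0.22). Prnd, which encodes the prion-like protein doppel (1.19 ± 0.08), Gfpt2, an enzyme of the hexosamine pathway (1.12 ± 0.10), and Rhbdf2, a rhomboid-like protein that brings the sheddase of tumour necrosis factor to the cell surface (1.05 ± 0.21), were higher. Cd200, a membrane glycoprotein that restrains myeloid cells, was at 2089.8 to 2349.3 against 996.4 to 1075.2 (1.10 ± 0.05).

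**Figure D1:**
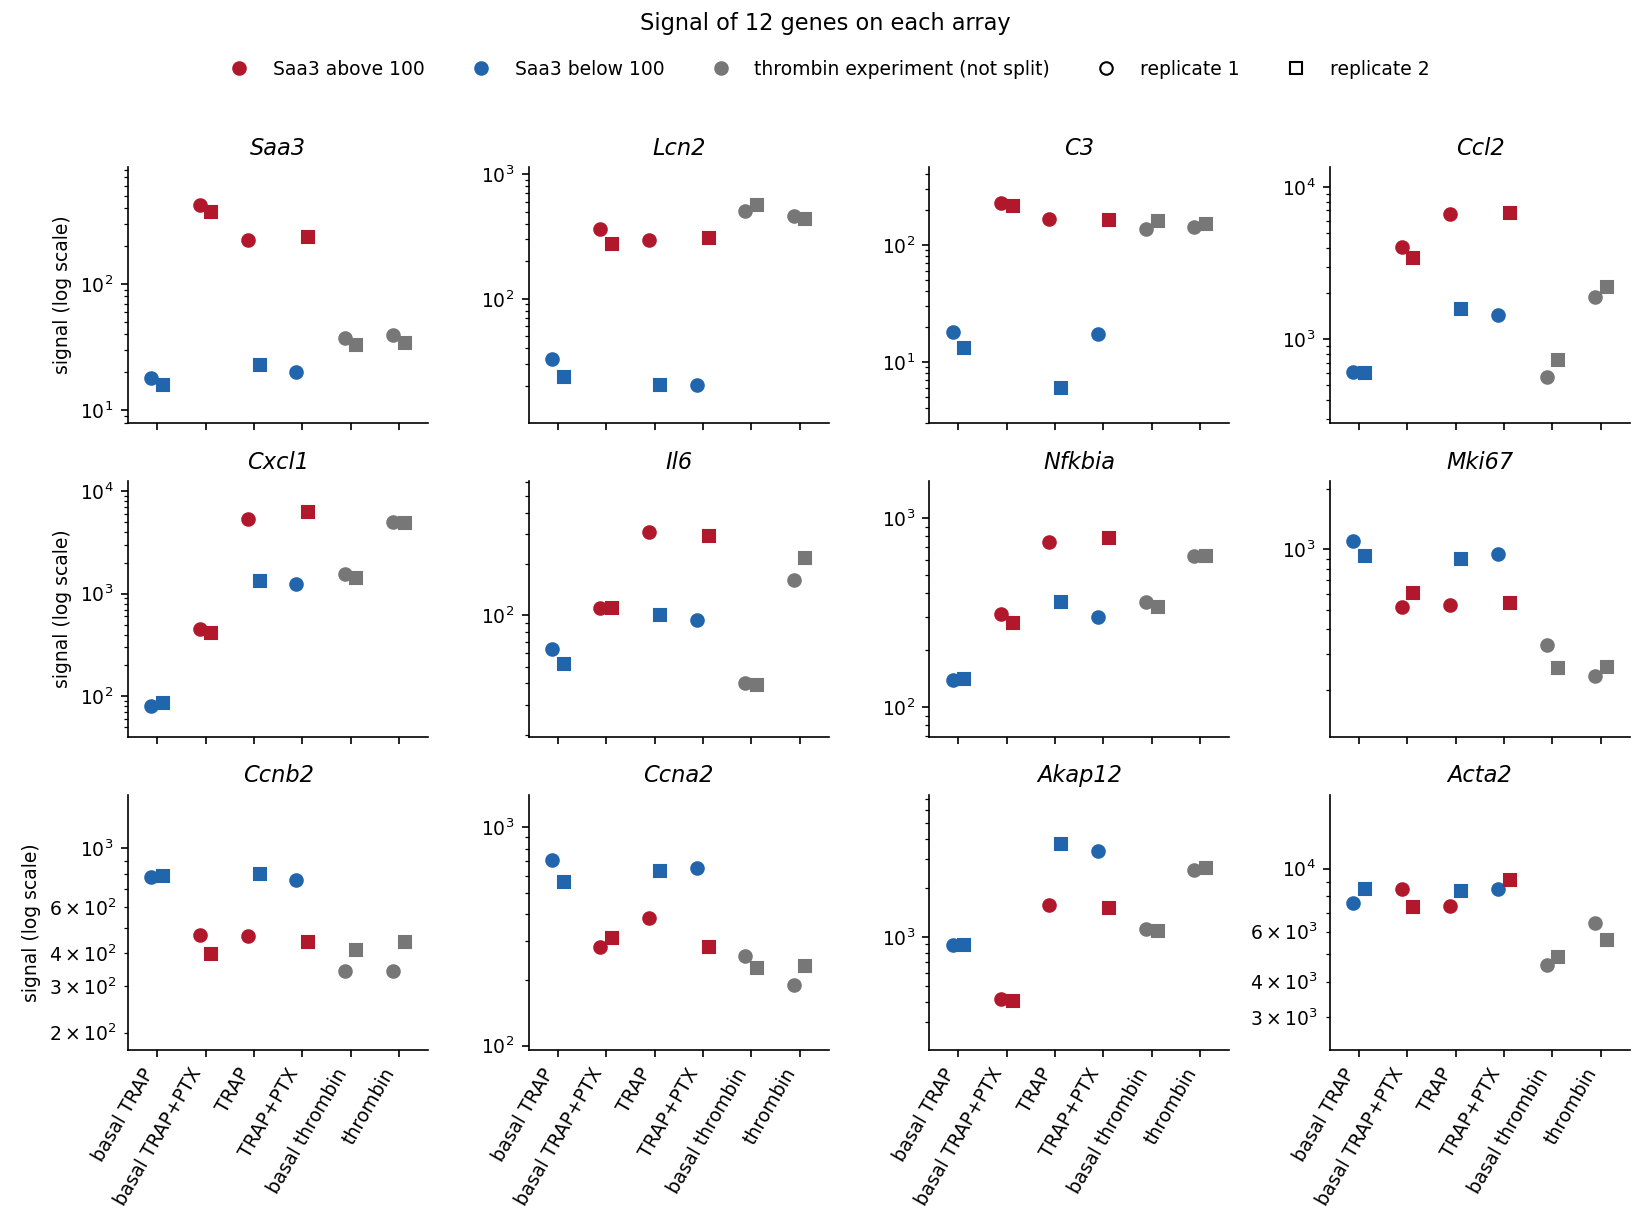
Signal (log scale) of 12 genes on each array by labelled group, red for Saa3-high, blue for Saa3-low and grey for the 4 thrombin-experiment arrays; circles are replicate 1 and squares replicate 2. Lcn2 on the Saa3-high arrays lies between 275.2 and 360.2 and on the Saa3-low arrays between 20.2 and 32.8, Mki67 goes the other way, and Acta2 overlaps between the sets.

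The 5 genes counted as lower have different roles. Adamts5, a protease that cuts aggrecan and versican, was at 243.2 and 267.6 basal and 189.2 and 101.2 stimulated on the Saa3-high arrays, against 732.7 and 668.7, then 594.3 and 440.4 (-1.58 ± 0.22, and -1.17 on its other probe set). Akap12, a scaffold for protein kinases A and C, was at 414.3 and 401.0, then 1567.7 and 1503.2, against 894.9 and 889.9, then 3728.6 and 3365.0 (-1.15 ± 0.04). Arrays of the same set and stimulation lay within a narrow range for Akap12, and the sets were apart by about the same distance before and after stimulation. The labelled replicates of its stimulated groups lie in different sets and were not close. Serpinb2, an inhibitor of plasminogen activators, was dim on basal arrays of both sets, at 16.5 and 11.3 against 24.5 and 26.8, and after stimulation at 73.6 and 39.3 against 204.0 and 189.8 (-1.04 ± 0.30). Troap, a spindle protein (-1.42 ± 0.29), and Ttk, a kinase of the spindle checkpoint (-1.0 ± 0.23), belong to mitosis. The other probe set of Ttk gave -0.60, short of 2-fold.

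Genes of cell division were lower together. Of 42 measured genes of mitosis and G2/M, 29 were at least 1.5-fold lower on the Saa3-high arrays without overlap, 37 did not overlap at any size, none was above 0, and the median was -0.66. Mki67, a protein of proliferating cells, was at 515.4 and 607.5 basal and 526.6 and 539.2 stimulated on the Saa3-high arrays, against 1095.7 and 925.7, then 900.3 and 943.1, a difference of -0.80 ± 0.08. Ccnb2, a cyclin of mitosis, was at 468.5 and 398.4, then 466.6 and 442.7, against 780.5 and 787.3, then 799.5 and 760.7, also -0.80 ± 0.06. For both genes stimulation moved the arrays little and the sets did not overlap. Ccna2 (-0.99), the kinesin Kif11 (-0.85), Ccnb1 (-0.80) and the topoisomerase Top2a (-0.75) were similar in size. The kinases Plk1 (-0.17) and Aurka (-0.34) overlapped between the sets. The Saa3-high arrays still held clear mitotic signals, so the sets differ in degree.

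DNA replication and S phase had 41 measured genes, none above 0, with 6 at least 1.5-fold lower, 32 without overlap at any size and a median of -0.44. Uhrf1, which keeps DNA methylation through replication, had the largest difference, -0.80 ± 0.20, followed by the cyclin Ccne2 (-0.72). The other probe set of Ccne2 gave 0.08 ± 0.10 and overlapped between the sets. The helicase subunit Mcm4 (-0.70) and the ribonucleotide reductase subunit Rrm1, at 581.0 to 693.9 against 1009.9 to 1050.1 (-0.67), came next. Among 10 regulators of G1, Ccnd1, the cyclin that mitogens induce, was at 468.4 to 550.1 against 790.4 to 948.7 (-0.72 ± 0.08), while its other probe sets gave -0.43 and -0.32. Growth arrest genes did not go the other way as a group. Of 25 measured, 5 were higher and 5 lower without overlap, beside 7.6% and 8.2% of all genes, and the median was 0.04. The inhibitors of cyclin-dependent kinases Cdkn1a and Cdkn1b differed by 0.22 and 0.04, against 0.75 for Ddit4, an inhibitor of mTOR signalling. In bulk RNA, fewer dividing cells and less of these transcripts per cell cannot be told apart.

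Other lists chosen for this tissue separated the sets less. None of 21 contractile smooth muscle genes passed 1.5-fold (median -0.05, with Casq2 the farthest at -0.48), nor did any of 21 genes of hypoxia and glycolysis (0.07, P4ha2 at 0.50), 14 of cholesterol synthesis (-0.17, Nsdhl at -0.27) or 11 reference genes (0.04, Gusb at -0.19). In the cholesterol list 13 of 14 genes were below 0 and 6 were lower without overlap, all by less than 1.5-fold. Of 28 collagens and elastic matrix genes 1 passed 1.5-fold, Fbln2 (0.68). Of 22 immediate-early factors, Ier3 was higher (0.63) and Nr4a3 lower (-0.78, and -0.42 on its other probe set) at that size. Of 11 metalloproteinases and inhibitors, Mmp2 was higher (0.65) and Adamts5 lower.

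**Figure D2:**
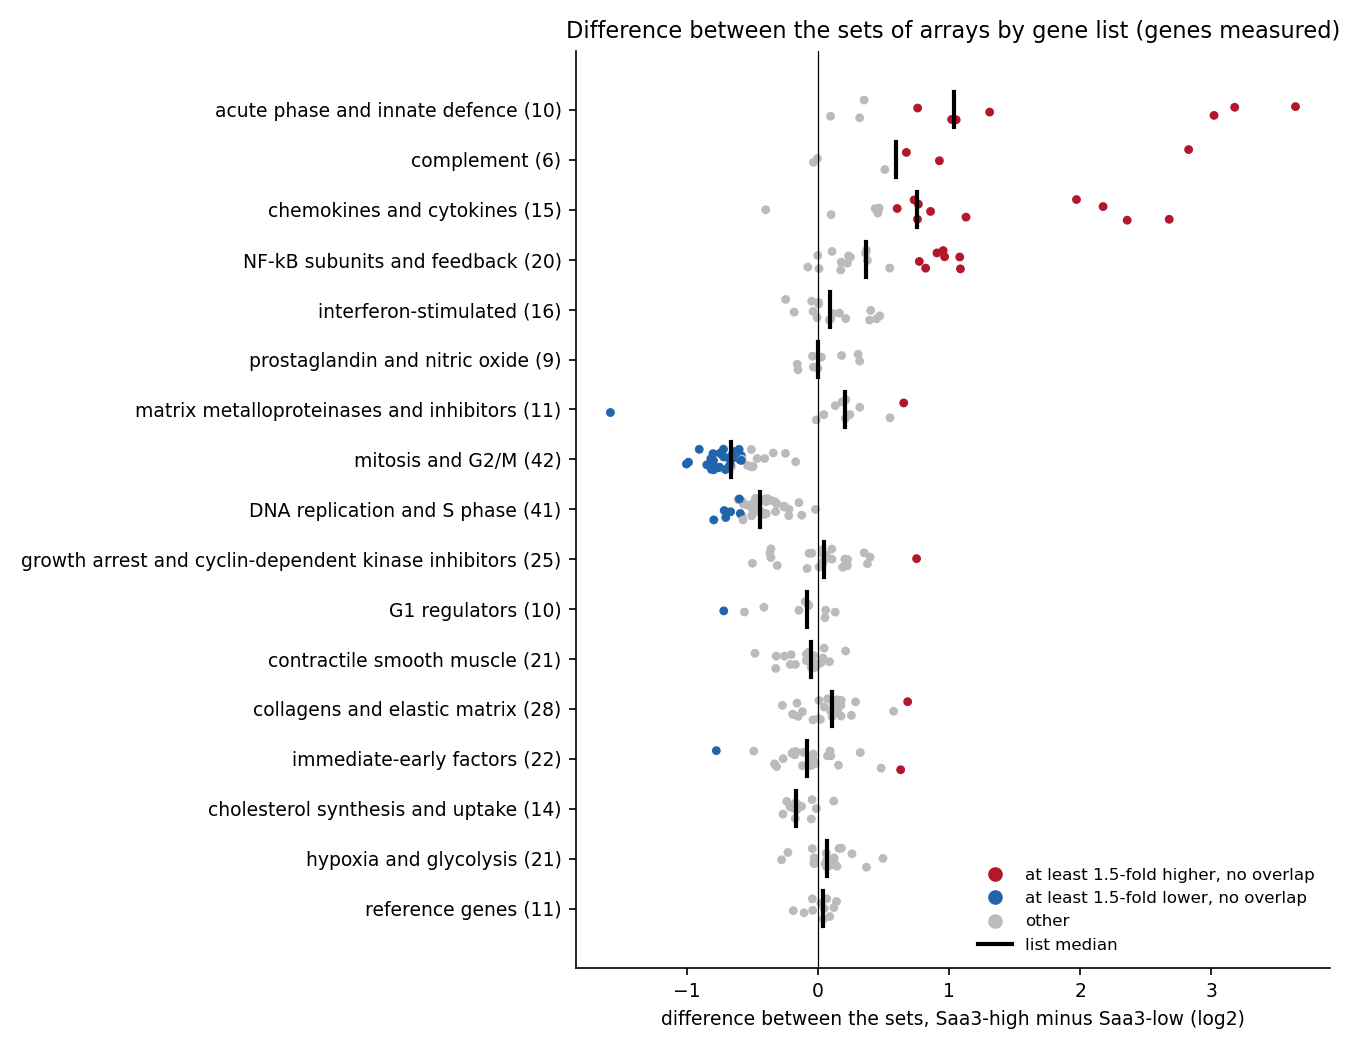
Difference between the sets (log2) of each measured gene of 17 gene lists, 1 dot a gene, with the list median as a black bar and the number of genes in brackets; red and blue dots are at least 1.5-fold apart without overlap. The acute-phase median, over genes that include Saa3, lies at 1.04 and the mitosis median at -0.66, with all 42 mitosis genes left of 0.

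The 8 arrays give the difference in 3 ways that share no array: 2 against 2 basal arrays, TRAP replicate 1 minus 2, and TRAP+PTX replicate 2 minus 1. The basal difference is that of basal TRAP+PTX minus basal TRAP arrays, so set and experiment cannot be told apart in it. For Pla2g2a the 3 values were 3.49, 3.68 and 3.91, for Lcn2 2.91, 3.10 and 3.16, and for Mki67 -0.83, -0.76 and -0.79. The medians over the 19 higher genes were 1.32, 1.47 and 1.38, and all 3 values enter the rule that chose those genes. Saa3 itself differed more on basal arrays (3.65) than on TRAP (2.62) and TRAP+PTX arrays (2.81). Ccl20 went the other way, with 1.32 basal against 2.41 and 2.84, as did Il6, with 0.78 against 1.47 and 1.49. For Serpinb2 the values were -0.48, -1.30 and -1.90, and for Ttk -1.45, -0.25 and -0.87. Over all 9906 genes the differences correlated with r = 0.333 between basal and TRAP arrays, 0.451 between basal and TRAP+PTX arrays and 0.398 between the stimulated pairs, as a description across genes, which are not independent.

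**Figure D3:**
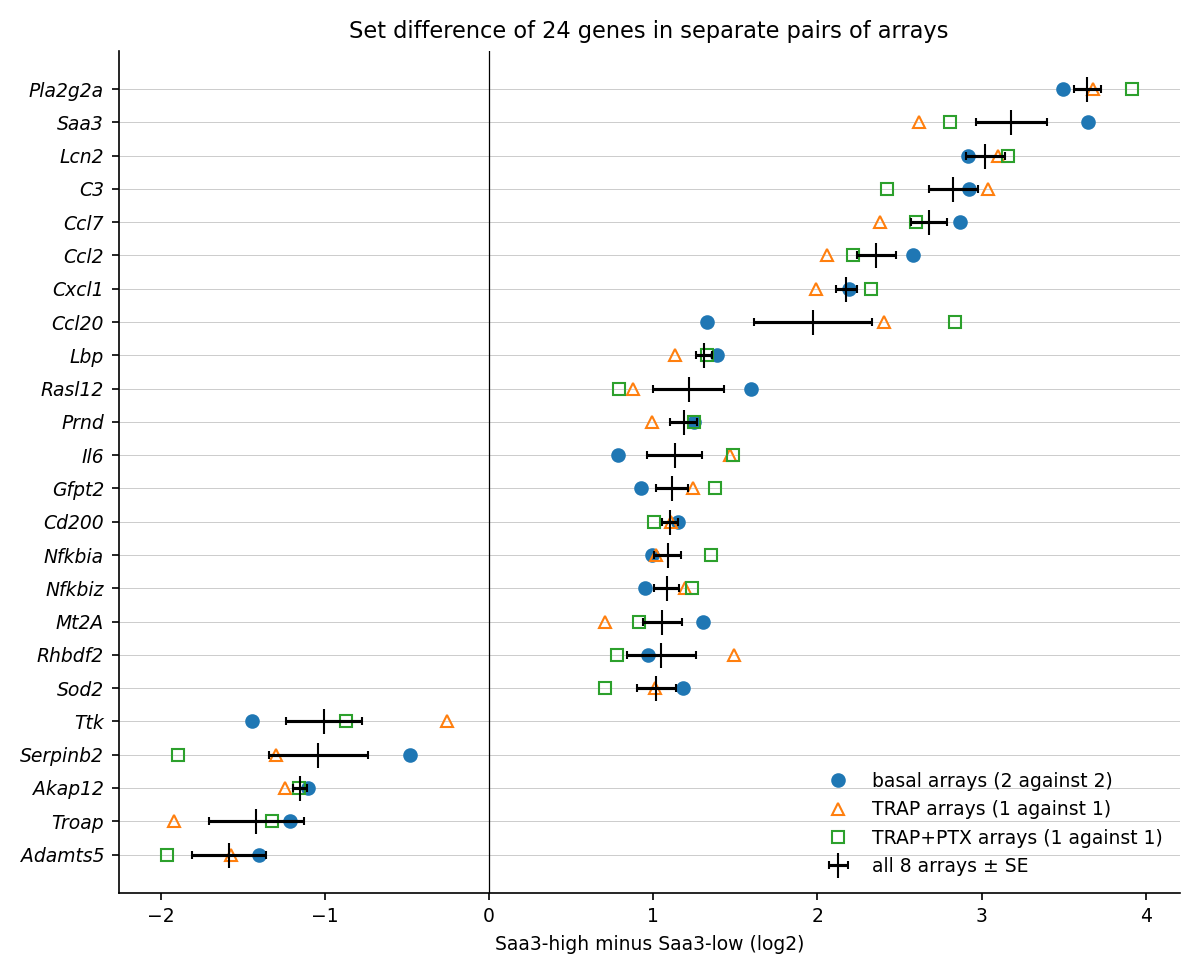
Difference between the sets (log2) of the 24 counted genes among basal arrays (circles, 2 against 2), TRAP arrays (triangles, 1 against 1) and TRAP+PTX arrays (squares, 1 against 1), with the value over all 8 arrays and its SE in black. Every separate value lies on the same side of 0 as its gene's overall value, which the counting rule requires.

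Markers of other cell types were read beside these differences. Of the smooth muscle markers, Acta2 was at 7322.1 to 9115.4 on the Saa3-high and 7538.6 to 8497.7 on the Saa3-low arrays. The summed signal of 9 such markers was 15132 to 19498.8 against 15083.8 to 17604.4, most of it Acta2 and Tagln. Myh11 (37.1 to 64.6 against 47.5 to 65.8) and Synpo2 (7.7 to 35.4 against 16.3 to 22.8) were dim. Cnn1, Smtn, Lmod1 and Mylk lay between these levels. Mfap5 of the fibroblast list was bright (5493.5 to 5865.9 against 5380.7 to 6222.0), so these markers alone do not establish the labelled cell type. Of 12 leukocyte markers, 10 were below 50 on all 8 arrays, among them the pan-leukocyte Ptprc at 0.4 to 11 against 0.6 to 5.3 and Itgam at 1.3 to 2.5 against 1.3 to 2.3. Their sum, most of it Cd14, was 460.8 to 500.5 against 387.7 to 503.9. Of 7 endothelial markers on the array all were below 50, with Pecam1 at most 7.5 and the sum at 70 to 107.6 against 51.5 to 71.6. Sums for adventitial fibroblast markers (9415.8 to 10153.3 against 9889.8 to 10580.5), pericyte markers (860.9 to 928.1 against 895.3 to 1002.2), Schwann and neural markers (212.3 to 347.9 against 195.9 to 291.4) and adipocyte markers (9.1 to 30.1 against 4.7 to 27.1) overlapped. The sum for epithelial and mesothelial markers did not, at 2773.1 to 3182.1 against 2646.2 to 2768.4. Most of it was Msln, which mesothelial cells express, at 2614.9 to 3036.3 against 2486.5 to 2625. No marker that passed the filter on signal was counted at 1.5-fold. Dim markers were outside that count, such as the pericyte marker Rgs5 (5.7 to 26.7 against 0.2 to 8.0) and the fibroblast marker Clec3b (13.9 to 25.3 against 2.6 to 14.9), both of which overlapped. The part of mesothelial cells in the differences was not tested.

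The arrays of the thrombin experiment, outside the split, matched neither set. Lcn2 was at 509.7 and 565.6 on their basal arrays, above all 8 arrays of the TRAP experiments, and C3 at 137.5 and 159.9 and Pla2g2a at 199.2 and 192.2 lay near the Saa3-high set. Saa3, at 37.4 and 33.0, lay near the Saa3-low set, and so did Ccl2 (564.1 and 727.7) and Ccl7 (133.0 and 149.0). The acute-phase genes that move together in the TRAP experiments were thus not at matching levels here. Mki67 (333.9 and 257.5) and Ccna2 (258.6 and 227.1) lay below both sets, and of the 111 genes at least 1.5-fold lower on the Saa3-high arrays, 88 had a basal thrombin mean below both basal means of the TRAP experiments, 12 between them and 11 above. Of the 74 higher genes, 24 lay below both, 27 between and 23 above. These 4 arrays also stand apart in other values. Their median signal was 39.7 to 40.6, below the 43.6 to 53.6 of the other 8, and the mean signal of the control probe sets was 144.4 to 202.8 for bioB, against 232.9 to 294.9, and 4785 to 6212.2 for creX, against 8122.3 to 9558.6. Summed marker signals were lower for smooth muscle (9905.1 to 13582.1), adventitial fibroblasts (6261.2 to 6801.6) and pericytes (392.7 to 519.2) than on any of those 8 arrays, and higher for leukocytes (607.4 to 719.3). The levels describe separate experiments, and the part of these values in them was not tested.

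The first labelled comparison asks what stimulation does in the TRAP experiments, over both TRAP and TRAP+PTX against their basal arrays, where each side holds 2 arrays of either set. By limma, with p-values adjusted after Benjamini and Hochberg, 342 of 9906 genes rose (3.45%) and 402 fell (4.06%). Centring each array on its median turned this split to 439 and 156, and quantile normalization to 352 and 314. The total of 744 was 330 without basal TRAP replicate 1 and 359 without basal TRAP replicate 2. Of the 19 genes higher on the Saa3-high arrays, 3 rose: Cxcl1 by 3.70 ± 0.46 (adjusted p = 0.000764), Nfkbiz by 2.15 ± 0.27 (0.000724) and Nfkbia by 1.24 ± 0.26 (0.0172). Rasl12 was the 1 that fell, by 1.02 ± 0.23 (0.0231). Of the 5 lower genes, Akap12 rose by 1.92 ± 0.26 (0.00133) and Serpinb2 by 1.80 ± 0.37 (0.0144). The calls of Nfkbia, Rasl12 and Serpinb2 were lost without either basal TRAP array (adjusted p from 0.0513 to 0.0879), that of Nfkbia also without basal TRAP+PTX replicate 2 (0.055), and that of Rasl12 without basal TRAP+PTX replicate 1 (0.0719), TRAP replicate 2 (0.0732) or TRAP+PTX replicate 1 (0.0679). Without limma's intensity trend all 3 of these calls were lost (from 0.0557 to 0.0695), and with no filter on signal that of Rasl12 (0.058).

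The acute-phase genes that separate the sets most did not pass this test, with changes of -0.28 ± 0.59 for Saa3, -0.17 ± 0.68 for Lcn2, -0.31 ± 0.60 for C3 and -0.24 ± 0.81 for Pla2g2a. Neither did Mki67 (-0.10 ± 0.18) or Ccnb2 (0.03 ± 0.18). These standard errors hold the split, since each stimulated group has an array of either set: the median standard error of the 24 counted genes in the comparison of TRAP+PTX with TRAP was 0.44, against 0.14 for all genes. With the set as a covariate, 395 genes rose (3.99%) and 477 fell (4.82%), and of the 19 genes 10 rose and 1 fell. Ccl2 was among those that rose (1.08, limma's adjusted p = 2.22e-05, against 0.196 without the covariate). Ccl20 (2.13) had an adjusted p of 0.0503 without the covariate and 0.000207 with it. The covariate was read from the same arrays, so its calls are not independent support. It also takes out the split by which the counted genes were chosen, which lowers their standard errors (for Ccl2 from 0.46 to 0.09). Their p-values with the covariate can therefore be too small. By list, 8 of 20 NF-kB genes, 4 of 15 chemokines and cytokines and 13 of 22 immediate-early factors rose, while of 42 mitosis genes, 41 S phase genes and 10 acute-phase genes none passed the test.

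Within a set, stimulated and basal arrays differed by like amounts for several of these genes. The basal arrays of a set are of the same experiment and its stimulated arrays of both. These changes therefore hold the stimulus and differences between the experiments, which cannot be told apart in them. The change was 3.69 on the Saa3-high and 3.72 on the Saa3-low arrays for Cxcl1, 1.33 and 1.14 for Nfkbia, and 1.87 and 1.97 for Akap12 (2 stimulated against 2 basal arrays each). Cxcl1, Nfkbia and Akap12 thus kept about the same distance between the sets while all arrays moved. Larger gaps were seen for Ccl20 (2.78 and 1.48), Il6 (1.31 and 0.62) and Serpinb2 (1.24 and 2.35), and Saa3 went from -0.75 to 0.19. Whether the changes differ between the sets was not tested, because the sets were chosen on these arrays.

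**Figure D4:**
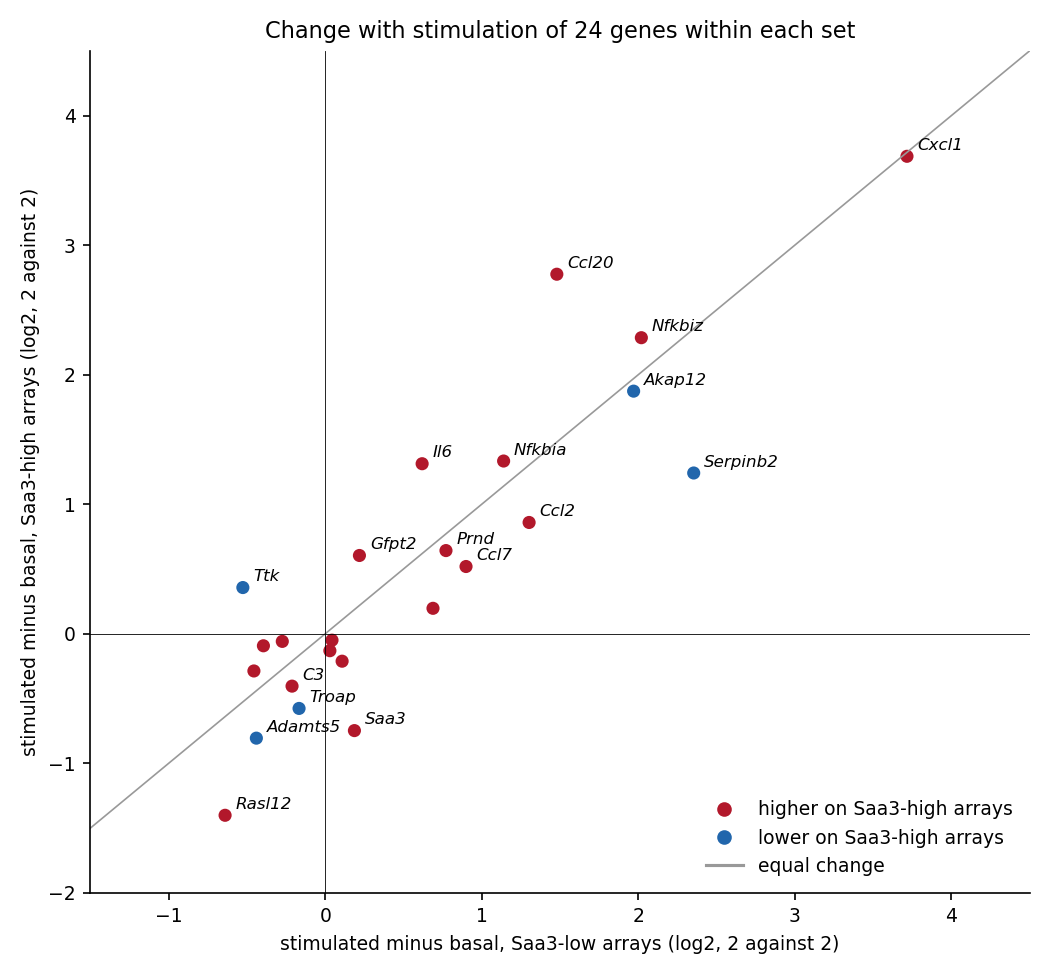
Change with stimulation (log2, 2 stimulated against 2 basal arrays) of the 24 counted genes on the Saa3-low arrays (horizontal axis) and on the Saa3-high arrays (vertical axis), with a grey line where both are equal. Cxcl1 lies on the line at 3.72 and 3.69, Ccl20 and Il6 lie above it, and Serpinb2 lies below it. The basal arrays of a set are of the same experiment and its stimulated arrays of both.

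The labelled change of each experiment against its own basal arrays carries the split, because both basal TRAP arrays are Saa3-low and both basal TRAP+PTX arrays are Saa3-high. Read by label, the change of Saa3 was 1.54 with TRAP and -2.11 with TRAP+PTX, and that of Lcn2 1.27 and -1.60. Ccl2 gave 2.41 and -0.24 by the same reading, and Mki67 gave -0.54 and 0.34. These values hold both the change with the stimulus and the difference between the sets, and no test is given for them.

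The second labelled comparison asks what PTX does to the stimulated cells, with TRAP+PTX against TRAP arrays, taking their labels as given. Each group holds 1 array of either set. No gene passed in limma (0% called, and 556 genes at an unadjusted p under 0.05), and the lowest adjusted p was 0.0879. Of the 24 counted genes none had an unadjusted p under 0.05, their changes ran from -0.61 to 0.29, and their lowest adjusted p was 0.899. For Saa3 the change was -0.00 ± 0.83, for Lcn2 0.04 ± 0.96 and for Ccl2 -0.07 ± 0.65. Such intervals are too wide to show that PTX leaves these genes as they were. Leaving out 1 array moved the value for Lcn2 anywhere from -1.54 to 1.62 and that for Saa3 from -1.41 to 1.4, because the groups then hold unequal numbers of Saa3-high arrays. The set as a covariate gave 13 genes (0.131%), none of them among the 24, and a fit of all 12 arrays gave 4. Leaving out TRAP replicate 1 gave 2 genes and leaving out either basal TRAP+PTX array gave 1.

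The third comparison used the 4 arrays of the thrombin experiment, on which the split was not made. Here limma called 231 of 9906 genes as higher (2.33%) and 135 as lower (1.36%) after thrombin. Of the 19 genes higher on the Saa3-high arrays 6 rose and none fell. Ccl2 rose from 564.1 and 727.7 to 1896.3 and 2206.2, by 1.65 ± 0.14 (adjusted p = 0.000444), and Ccl7 from 133.0 and 149.0 to 419.9 and 419.5, by 1.47 ± 0.12 (0.00033). Both thrombin arrays lay above both basal arrays for these chemokines, and still below the Saa3-high basal arrays of the TRAP experiments. Il6 rose from 40.1 and 39.0 to 160.7 and 216.6, by 1.87 ± 0.18 (0.000832), and Cxcl1 from 1552.3 and 1412.1 to 4953.9 and 4894.7, by 1.72 ± 0.11 (7.32e-05). Nfkbiz rose by 1.71 ± 0.18 (0.0013) and Nfkbia by 0.82 ± 0.10 (0.00403).

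Of the 5 lower genes, Serpinb2 rose from 44.7 and 30.0 to 1321.1 and 1530.8, by 4.77 ± 0.16 (adjusted p = 3.07e-06), and Akap12 by 1.24 ± 0.10 (0.000321). Of the 74 genes at least 1.5-fold higher, 11 rose and none fell, among them Tnfaip3 by 1.66 ± 0.17 and Csf3, a growth factor of granulocytes, by 1.67. Saa3 (0.05 ± 0.20), Lcn2 (-0.26 ± 0.11), C3 (-0.02 ± 0.14) and Mki67 (-0.24 ± 0.14) did not pass the test. Of the 5 counted chemokines and cytokines 4 thus rose with thrombin, all but Ccl20 (0.12 ± 0.12), and of the 6 counted acute-phase genes none passed. The total of 366 genes was 893 without basal thrombin replicate 2, and it was 229 and 235 when thrombin replicate 1 or 2 was left out. In a fit of all 12 arrays, whose shared spread holds the split, the calls of Ccl2, Ccl7, Cxcl1, Nfkbia and Akap12 were lost (adjusted p from 0.0531 to 0.279).

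Finally the thrombin change was set against the mean of the TRAP and TRAP+PTX changes over all 12 arrays. In limma's test 90 of 9906 genes differed (0.909%), 52 of them with the larger value for thrombin and 38 with the smaller, a split of 30 and 36 after median centring. Among the 24 counted genes Serpinb2 passed, with a difference of 2.97 ± 0.58 (adjusted p = 0.0295), a call lost when any 1 of the 6 basal arrays or either thrombin array was left out (from 0.0601 to 0.154). Cebpd, a C/EBP factor of the acute phase that was 0.91 higher on the Saa3-high arrays, gave -1.84 ± 0.28 (0.00588). Cebpd rose from 238.9 and 254.2 to 776.6 and 966.3 on the Saa3-low arrays and from 645.4 and 503.1 to 1351.2 and 1398.9 on the Saa3-high ones, a change of 1.5 ± 0.16 over both (0.00032). With thrombin it was at 165.3 and 154.7 against 240.2 and 177.7 on basal arrays, a change that did not pass (adjusted p = 0.32). For Cebpd the call of the difference was lost without basal thrombin replicate 1 (0.0504) and without the intensity trend (0.0565). The other genes of the 24 did not pass, among them Cxcl1 (-1.98 ± 0.73, adjusted p = 0.328), which passed without TRAP+PTX replicate 1 (0.0385). With the set as a covariate, 135 genes differed (1.36%) and 7 of the 24 passed: Serpinb2 (6.11e-05), Cxcl1 (6.14e-06), Ccl20 (0.00164), Akap12 (0.00304), Ccl7 (0.00957), Mt2A (0.0203) and Il6 (0.0409). The values for Cxcl1, Ccl20, Akap12 (-0.69) and Mt2A (-0.68) were smaller with thrombin, and those for Serpinb2, Ccl7 (0.77) and Il6 (0.90) larger. As above, calls with this covariate are not independent support. The 24 genes were chosen for separating the sets, so their p-values with it can be too small. The total of 90 was 41 without basal thrombin replicate 1, 156 without its replicate 2, 56 without basal TRAP replicate 1, and 29 or 37 when thrombin replicate 1 or 2 was left out.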

How the data were processed

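RNA of 12 samples was measured with 1-colour Affymetrix arrays (31099 probe sets). The deposited values are signal intensity, not on a log scale, which the authors obtained with GCOS 1.4 per the submitters' processing notes. After leaving out 2% of values at either end, each array of the TRAP experiments has a mean of about 200.07. Present and absent calls entered no step, so no fold is given as a bound, and the number of arrays limits the precision. The array annotation names exactly 1 gene for 20826 probe sets, several for 436 and none for 9780.

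Analyses used log2(signal + 16), so changes of dim genes are understated. After removal of 57 controls, 18625 probe sets with a mean signal above the 40th percentile stayed in. Each of the 9906 genes is read from its brightest such probe set with 1 symbol.

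Tests were run in limma 3.58.1 under R 4.3.3 (lmFit, then eBayes with trend). They are 2-sided, p-values were adjusted by the Benjamini-Hochberg method over those 18625, and the threshold was 0.05. The 8 TRAP arrays in their 4 labelled groups shared a fit (4 residual degrees of freedom, prior 7.12), the 4 thrombin arrays had their own (2, prior 6.76), and the difference of changes used all 12. With 1 array left out, the other array of its group is taken to vary as the remaining groups do. The code was tested on simulated data.

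The members, gene lists and settings were chosen with earlier results of these data known. Named genes are the markers Saa3, Lcn2, C3, Mki67 and Ccnb2, the 15 largest counted differences in each direction, up to 4 counted genes per list (else the 1 with the largest difference), and up to 6 counted genes with the smallest p per test and direction. Promoter windows come from RefSeq (GRCr8), with 16 of the 19 higher and 4 of the 5 lower genes matched by symbol. Alternatives were other pseudocounts, filters, scalings and folds, no intensity trend, the set as a covariate, replicate blocks, a split on Lcn2, a fit of all 12 arrays and each array left out.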

Additional observations from a re-analysis of the deposited data

Results flagged for a closer look

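Responses of 2 genes differed between thrombin and the mean of TRAP and TRAP+PTX by the test of the difference itself, in limma with Benjamini-Hochberg adjustment over all 12 arrays. For Serpinb2 the thrombin change was larger by 2.97 on the log2 scale (adjusted p = 0.0295), with 2 of 2 thrombin arrays above all stimulated TRAP and TRAP+PTX arrays. The adjusted p was 0.105 with 1 in place of 16 added, 0.0656 with no filter on signal, 0.0564 after quantile normalization and 0.11 without the intensity trend. For Cebpd the difference was -1.84 (adjusted p = 0.00588), with 2 of 2 thrombin arrays below both of their basal arrays and 4 of 4 stimulated TRAP and TRAP+PTX arrays above all 4 basal ones. Without the intensity trend its adjusted p was 0.0565. Cebpd was named after its values were seen.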

How the results depend on the processing

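No named value that was called or counted turned its sign in any setting run, while a split on Lcn2, which does not overlap between the sets, could only return the same arrays. Counts moved more. The 19 higher genes became 33 with 1 added before the log and 10 with 64, 74 at 1.5-fold and 7 at 4-fold, and the 5 lower genes 10, 2, 111 and 0. Leaving out single arrays gave 17 to 24 higher and 3 to 7 lower genes. Stimulation in the TRAP experiments called 330 to 618 genes without single arrays (744 with all 8), and the 6 counted genes called became 3 without the intensity trend, 14 with the set as a covariate and 3 to 11 without single arrays, the 11 without TRAP+PTX replicate 1. For TRAP+PTX against TRAP, where no gene was called, quantile normalization gave 1, the set as a covariate 13, the fit of all 12 arrays 4, and leaving out single arrays 0 to 2. Thrombin against basal (366) gave 151 with no filter on signal, 139 without the trend, 557 in the fit of all 12 arrays, which left 3 of 8 counted genes called, and 229 to 893 without single arrays, with 8 to 9 counted genes called. The thrombin difference (90) gave 33 without the trend and 29 to 156 without single arrays.

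The labels do not say what replicate numbers share, and they were not taken as pairs. Deviations of replicate 1 correlated weakly between a basal group and its own stimulated group (r = 0.134 for thrombin, 0.104 for TRAP and 0.022 for TRAP+PTX) and below 0 between TRAP and TRAP+PTX (-0.321) and between their basal groups (-0.216). With the replicate block the calls were 808 for thrombin (366 without it), 567 for stimulation in the TRAP experiments, 0 for TRAP+PTX against TRAP and 65 for the thrombin difference. A crossed replicate block, added after seeing the data, gave 743 genes for stimulation and 6 for TRAP+PTX against TRAP. Among tests of named genes, 24 lost and 21 gained a call in settings other than leaving out an array, and 31 and 11 when 1 array was left out. Of set differences of named genes, 33 of 449 in those other settings moved by more than the spread between arrays. With 2 arrays a group and no detection calls, dim genes have little precision, such as Serpinb2 on basal arrays and Pla2g2a on the Saa3-low arrays.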
